A study of Mus musculus with 20 samples.

Results

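The late tamoxifen responders were 374 probes of 42006 distinct probes on a mouse expression array. On day 4 of a tamoxifen course they differed between cells kept in the drug and cells that had it for the first day alone, while on days 1 and 2 treated and untreated cells lay close together. They were chosen on the authors' processed signals, as the log2 of the sample signal over the reference signal minus the median of the array, averaged by probe and then by group. A probe was kept when its sample signal was well above background on all 4 day 4 arrays, which held for 27355 probes, when the day 4 difference was at least 0.4 in size, and when the day 1 and day 2 differences were both under 0.3. Of these members, 217 were higher and 157 lower in continued than in withdrawn cells on day 4. The day 4, day 1 and day 2 differences of these probes are therefore given as a description only, with no test. Both day 4 arms lay on slide 5. Untreated and treated cells lay on slides 1 and 2 on day 1, and on slides 2 and 3 on day 2. Drug and slide therefore cannot be told apart in the day 1 and day 2 differences.

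The cells were mouse embryonic stem (ES) cells of V6.5 origin, a single clone that carries Zscan4 joined to ERT2 under the ubiquitous CAG promoter, so every group carried the transgene. They grew as a monolayer on gelatin, and tamoxifen was given at 200 nM. The 10 groups had 2 arrays each. Untreated cells were taken on day 0, day 1 (Tmx-) and day 2 (Tmx--). Continued cells had tamoxifen for 1 day (Day1 Tmx+), 2 days (Day2 Tmx++), 3 days (Day3 Tmx+++) or 4 days (Day4 Tmx++++). Withdrawn cells had it for 1 day and then plain medium for 1 day (Day2 Tmx+-), 2 days (Day3 Tmx+--) or 3 days (Day4 Tmx+---). No untreated cells of days 3 or 4 were analysed here. Each array compared sample RNA in the Cy3 channel with a common reference in the Cy5 channel, which was RNA of a pool of mouse cell lines mixed with ES cell RNA. Dyes were not swapped. No label tells if both arrays of a group stem from different cultures, so the p-values measure the spread between arrays, which may be technical.

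Zscan4 is a zinc finger protein gene known from the early mouse embryo, where it is active around the time the embryonic genome switches on, and from the small and changing fraction of ES cells that express it for a short while. In ES cells it is known for its part in telomere lengthening and in keeping the genome stable. The ERT2 part is an altered hormone-binding domain of the oestrogen receptor: it holds a fusion protein outside the nucleus until tamoxifen binds it. Withdrawing the drug and continuing it thus compares a short with a lasting release of the same fusion protein.

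The array files give probe identifiers and 60-base probe sequences but no gene names, so members are named by probe identifier, and the 16 gene lists drawn up for this cell type could not be applied. The ES cell identity of the samples could not be checked by marker genes for the same reason. All levels below, unless said otherwise, are log2 sample over reference after background correction with an offset of 50 and loess normalization. That offset draws the ratios of dim probes towards 0, and most members were dim. On this scale the median day 4 difference was 0.21 over the 217 higher members and -0.20 over the 157 lower members, against 0.494 and -0.47 on the processed-signal scale of the choice. By limma with an adjusted p under 0.05, 88 higher members (40.6%) and 70 lower members (44.6%) passed on day 4, where 5.73% of all probes were called higher and 6.53% lower; the choice used this contrast, so nothing is read from these shares.

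The higher members held one feature that the choice did not use. The letters CCTAACC occurred in 14 of the 217 higher members (6.45%) and in 0 of the 157 lower members, while 86 of the 27355 probes well above background on day 4 held them (0.314%) and 115 of all 42006 probes (0.274%). The word was found after the values had been seen, by counting every 7-letter word: 27 words stood in at least 6 higher members, and CCTAACC had the highest ratio to the 27355 probes, 20.5, so the counts are a description with no test. As background, the same letters occur where units of the vertebrate telomere repeat, CCCTAA, follow each other; whether RNA of such repeats reached these probes was not tested. On the opposite strand, GGTTAGG stood in 36 of the 27355 probes (0.132%) and in 0 members. The searches in members and in all probes used each printed strand apart, and the 2 words do not overlap. The 8 higher members with a day 4 difference of at least 1 on the scale of the choice are shown here because the largest differences lie in them, and 5 of them hold the word, which is in capitals.
Z00028256-1: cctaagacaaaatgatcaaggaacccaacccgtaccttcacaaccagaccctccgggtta
Z00030451-1: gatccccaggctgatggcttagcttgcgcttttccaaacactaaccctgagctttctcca
Z00077901-1: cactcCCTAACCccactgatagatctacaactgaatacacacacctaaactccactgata
Z00022725-1: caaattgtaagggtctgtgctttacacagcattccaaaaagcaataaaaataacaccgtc
Z00030602-1: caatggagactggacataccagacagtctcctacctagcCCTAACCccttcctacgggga
Z00070483-1: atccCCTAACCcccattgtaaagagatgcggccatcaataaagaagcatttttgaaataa
Z00057511-1: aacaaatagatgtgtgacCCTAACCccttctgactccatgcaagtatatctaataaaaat
Z00077847-1: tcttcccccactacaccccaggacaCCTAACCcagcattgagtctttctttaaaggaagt

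In 8 of the 14 members with the word, it went on with 2 more C letters. The word lies near the start in some and near the end in others. Among the lower members the leading word was GGCCCCT, in 6 of 157 members (3.82%) and in 105 of the 27355 probes (0.384%). It was 1 of 4 words that stood in at least 6 lower members. The 6 include Z00024128-1, whose day 4 difference came from a single spot, as described below. Of these 4 lower members, Z00023705-1 and Z00071011-1 are shown because they passed on day 3. Z00076713-1 and Z00005262-1 are shown because they were apart on days 3 and 4, with day 3 differences of -0.35 and -0.27. Z00077907-1 was also apart on both days, by -0.09 on each, and is not shown. No word is marked in the 4 sequences.
Z00023705-1: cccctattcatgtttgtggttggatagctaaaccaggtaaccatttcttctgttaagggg
Z00071011-1: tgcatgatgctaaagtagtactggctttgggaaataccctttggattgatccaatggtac
Z00076713-1: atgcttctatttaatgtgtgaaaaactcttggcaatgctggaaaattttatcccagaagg
Z00005262-1: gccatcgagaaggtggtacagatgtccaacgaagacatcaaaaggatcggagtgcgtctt

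The first question was whether the separation of the schedules was already present on day 3, on arrays the choice did not use. It was tested within the day 3 slide, which held both arms. By limma over 29414 probes, with a Benjamini-Hochberg adjusted p under 0.05, 0 of the 217 higher members were higher in continued cells and 2 of the 157 lower members were lower (1.27%). Over all probes tested, 0.153% were called higher and 0.367% lower, so few probes of any kind passed on day 3. At an unadjusted p under 0.05, 26 higher members were higher and 2 lower, where 5.11% of all probes were called higher and 4.2% lower, and 24 lower members were lower and 2 higher. Median centring in place of loess and processed signals in place of the corrected ones each left 0 members called.

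Most members leaned on day 3 towards their day 4 side by a small amount. The median day 3 difference was 0.05 over the higher members, between a lowest value of -0.25 and a highest of 0.31, and -0.05 over the lower members, between -0.43 and 0.21. Over all probes tested it was 0.01. The difference was above 0 in 157 of the 217 higher members (72.4%), where 55.1% of all probes were above 0, and below 0 in 108 of the 157 lower members (68.8%), where 44.9% of all probes were. The 2 continued arrays lay on the day 4 side of the 2 withdrawn arrays in 78 higher members (35.9%, against 26.6% of all probes) and in 68 lower members (43.3%, against 19.3%). They lay on the other side in 14 higher members (6.45%, against 19.3% of all probes) and 15 lower members (9.55%, against 26.6%).

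Probes past the same day 4 limit that were not members, 861 higher and 1030 lower, had also differed on day 1 or day 2: 1468 were past the day 1 limit, 1651 past the day 2 limit and 1228 past both. Of these 1891 probes, 138 (7.3%) were called on day 3 in their day 4 direction, and the median day 3 difference in that direction was 0.14. Their day 3 arrays were apart in that direction in 1248 probes (66.0%). Their day 4 differences were larger too, with a median size of 0.38 after background correction.

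The 2 lower members that passed on day 3 had different time courses. Z00023705-1 stood at 1.55 and 1.52 on day 0 and at 0.90 on both Day1 Tmx+ arrays, beside 0.90 and 0.98 in untreated cells of day 1. It was at 1.24 and 1.23 in withdrawn cells on day 2 beside 1.35 and 1.25 in continued cells. On day 3 it stood at 1.61 and 1.64 in withdrawn and 1.38 and 1.33 in continued cells, and on day 4 at 2.79 and 2.85 in withdrawn and 1.91 and 1.87 in continued cells. Both arms were thus higher on day 4 than on day 3, and the withdrawn arrays lay above the continued ones on both days without overlap. The day 3 difference was -0.27 (SE 0.055, n = 2 arrays a group; limma adjusted p = 0.033). In withdrawn cells alone the probe rose by 0.39 from day 2 to day 3 (SE 0.055, limma adjusted p = 8e-05). These days lay on different slides and in different scan sessions, so day and slide cannot be told apart in this rise. The same holds for every change from day 2 to day 3 and from day 0 to day 3 given below. The other probe, Z00071011-1, stood at 1.31 and 1.36 in withdrawn and 0.86 and 0.96 in continued cells on day 3, a difference of -0.43 (SE 0.087; limma adjusted p = 0.033). On day 4 it was at 1.00 and 0.90 in withdrawn and 0.74 and 0.61 in continued cells. On this background-corrected scale the arms thus lay closer than on day 3. The withdrawn day 3 arrays lay within the range of the day 0 arrays, 1.44 and 1.19. Both calls were lost with median centring (adjusted p = 0.17 and 0.054), with the processed signals (0.35 and 0.97) and when any 1 of the 4 day 3 arrays was left out. On the processed signals, the scale of the choice, the day 3 difference of Z00071011-1 was -0.09 and that of Z00023705-1 -0.23. The day 4 differences on that scale were -0.65 and -0.89. The arms of Z00071011-1 thus lay further apart on day 4 than on day 3 there, opposite to the order after background correction.

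The lower member Z00076713-1 was apart on days 3 and 4, with more spread between arrays. In withdrawn cells it stood at -0.72 and -0.83 on day 2, 0.43 and 0.12 on day 3 and 0.91 and 0.80 on day 4, higher at each step. In continued cells the day 2 arrays were at -0.70 and -0.53, the day 3 arrays at -0.14 and 0.00 and the day 4 arrays at 0.19 and 0.02. The withdrawn rise from day 2 to day 3 was 1.05 (SE 0.12; limma adjusted p = 8.5e-06), a 2.07-fold change, whereas the day 3 gap between the arms, -0.35 (SE 0.12), did not pass (limma adjusted p = 0.30). Z00005262-1 moved the other way in time. It stood at 0.39 and 0.30 on day 2 in withdrawn cells and fell to -0.13 and -0.09 on day 3 (change -0.46, SE 0.11; limma adjusted p = 0.0061), and it was at -0.48 and -0.72 on day 4. Continued cells lay below withdrawn cells for this probe on day 3, at -0.31 and -0.46, and on day 4, at -1.11 and -1.17. For both probes the changes between days lie between slides, so day and slide cannot be told apart in them.

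The other 3 of the 6 lower members named for their day 4 difference lay close together on day 3. Z00077907-1 stood at 0.28 and 0.38 in withdrawn and 0.26 and 0.22 in continued cells on day 3, and at 0.46 and 0.50 against 0.39 and 0.40 on day 4. Z00034725-1 overlapped on day 3, at 0.31 and 0.20 in withdrawn and 0.25 and 0.26 in continued cells, and stood at 0.74 and 0.97 against 0.72 and 0.21 on day 4. Z00025913-1 was at 0.52 and 0.46 in withdrawn and 0.46 and 0.38 in continued cells on day 3, and at 0.68 and 0.74 against 0.53 and 0.62 on day 4. Their day 3 gaps were all under 0.1 in size. Each channel was also read apart, as log2 processed signal minus the median of the array. For Z00025913-1 the day 4 difference was 0.31 in the sample and 1.05 in the reference channel. Its sample arrays overlapped, at -0.69 and -0.41 in withdrawn and 0.02 and -0.50 in continued cells. Its reference arrays stood at -3.28 and -3.35 against -1.61 and -2.93, so much of that gap lay in 1 continued array. The lower ratio of this probe thus came from the reference channel. The day 4 differences in the sample and the reference channel were -0.21 and 0.59 for Z00077907-1, and -0.8 and -0.04 for Z00034725-1.

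The members with CCTAACC stood high through day 2, low on day 3 in both arms, and high again on day 4 in continued cells alone. Over these 14 members the median level was 1.57 on day 0, between 1.23 and 1.67 in the 5 groups of days 1 and 2, and 0.08 and -0.02 in withdrawn and continued cells on day 3. On day 4 it was 0.36 in withdrawn and 1.25 in continued cells. By array, the day 3 medians were 0.27 and -0.05 in withdrawn and -0.06 and 0.09 in continued cells, and the day 4 medians were 0.28 and 0.44 against 1.36 and 1.09. The day 3 arrays of the arms thus overlapped and the day 4 arrays did not. The choice required the day 4 gap, so its size and the lack of overlap are a description only. On days 1 and 2 the median was lower with tamoxifen than without, opposite in sign to day 4. It was 1.33 against 1.6 on day 1, where the array medians overlapped, and 1.37 against 1.67 on day 2, where they did not. Treated and untreated cells of these days lay on different slides, and the choice used them, so this was not tested. In withdrawn cells all 14 were lower on day 3 than on day 2 by limma with an adjusted p under 0.05, by a median of -1.04 and between -2.13 and -0.30, where 11.7% of all probes were called lower. For 1 of the 14, Z00030602-1, a single withdrawn day 3 array was usable. Of the other 203 higher members, 23 (11.3%) were called lower and 21 (10.3%) higher in that comparison. Between the arms on day 3 the 14 members had a median difference of -0.03, between -0.20 and 0.30, with 5 above 0 and 9 below.

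Single members of this set show the same steps. Z00030602-1 stood at 1.11 and 1.66 in withdrawn cells on day 2, at -0.74 on the 1 withdrawn day 3 array whose spot was usable, at -0.79 and -0.09 in continued cells on day 3, at 0.21 and 0.37 in withdrawn cells on day 4 and at 1.54 and 1.32 in continued cells on day 4. The difference in withdrawn cells between day 3 and day 2, -2.13, thus rests on 1 day 3 array, and in its fit the spread comes from the other groups. The spot left out there as not uniform read 2.10 in the sample and 1.95 in the reference channel (log2 over the array median), against -0.68 and 0.51 on the array kept. Z00077901-1 dropped by -1.39 (SE 0.19; adjusted p = 4.4e-05) and Z00070483-1 by -1.30 (SE 0.17; adjusted p = 3.5e-05) in the same comparison by limma. The weakest member of the set was Z00044047-1, at 0.89 and 1.09 in withdrawn cells on day 2, 0.76 and 0.63 on day 3 and 0.59 and 0.61 on day 4, beside 0.94 and 0.88 in continued cells on day 4.

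Z00028256-1 and Z00030451-1, which had the largest day 4 differences of all higher members on the scale of the choice (1.73 and 1.36), took the same course without the exact word. Z00028256-1 was at 0.58 and 1.15 in withdrawn cells on day 2 and at -0.38 and -0.79 on day 3 (change -1.45, SE 0.20; limma adjusted p = 6.8e-05). On day 4 it was at -0.33 and -0.18 in withdrawn and 0.92 and 0.69 in continued cells. Z00030451-1 changed by -1.13 from day 2 to day 3 (SE 0.16; limma adjusted p = 9.2e-05), and its day 4 levels were -0.15 and 0.09 in withdrawn and 0.85 and 0.44 in continued cells.

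Both channels moved in these 14 members, although the reference RNA was the same on every array. Each channel was read as log2 processed signal minus the median of the array. In withdrawn cells the day 3 minus day 2 median was -2.62 in the sample channel and -1.03 in the reference channel, both below 0 in 14 of 14 members. By array, the median of the sample channel was at least 1.96 through day 2. On day 3 it was 0.16 and -0.68 in withdrawn and -0.69 and 0.19 in continued cells, and on day 4 it was 0.25 and 0.43 in withdrawn and 2.25 and 1.71 in continued cells. On day 4, within 1 slide, both channels were higher in continued than in withdrawn cells in 14 of 14 members. The median difference was 1.52 in the sample and 0.56 in the reference channel. The choice required a higher day 4 ratio in continued cells, so the count for the sample channel is a description only. The reference medians were -1.08 and -0.68 on the withdrawn and -0.10 and -0.17 on the continued day 4 arrays, without overlap. Arrays of days 0 to 2 were scanned in session 1, day 3 in session 2 and day 4 in session 3, each day 3 and day 4 set on its own slide, so that day and slide cannot be told apart for the change from day 2 to day 3. The part of the hybridization in the day 4 difference was not tested.

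The word alone did not make a probe a member. Of the 86 probes above background that hold it, 72 were not members; 12 of these were past the day 4 limit on the higher side, and 20 and 29 were past the day 1 and day 2 limits. The median change of these 72 probes in withdrawn cells from day 2 to day 3 was -0.14, with values between -1.36 and 1.01; 29 of the 72 were called lower and 8 higher by limma, beside 11.7% and 13.7% of all probes. Lower values on day 3 were therefore also found among probes with the word that were not members. Their median level was 0.04 in withdrawn and 0.11 in continued cells on day 4.

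The other 203 higher members had a median level of -0.19 in withdrawn and -0.04 in continued cells on day 4, and between -0.12 and -0.03 in the 8 groups of days 0 to 3. Z00022725-1, with a difference of 1.23 on the scale of the choice, shows how far a dim probe shrank after background correction: it stood at -1.13 and -0.97 in withdrawn and -0.76 and -0.70 in continued cells on day 4, a difference of 0.32. On day 3 it was at -1.04 and -1.19 in withdrawn and -0.95 and -0.96 in continued cells, apart in the same direction (0.16, SE 0.072; limma adjusted p = 0.49). Some members lay far below the reference. Z00000428-1, singled out after its values were seen, stood at -3.80 and -3.78 on day 0 and lower on the arrays of days 1 and 2, at -4.42 and -4.44 in continued cells on day 2. It rose in withdrawn cells from -4.64 and -4.53 on day 2 to -3.96 and -4.00 on day 3 (0.61, SE 0.078; limma adjusted p = 2.9e-05). On day 4 it stood at -3.06 and -2.89 in withdrawn and at -2.63 and -2.36 in continued cells, so both arms were then above day 0 and the continued arrays were the higher ones. Z00017989-1, chosen in the same way, was at -4.30 and -4.25 on day 0 and -5.13 and -5.11 in withdrawn cells on day 2. It rose by 0.76 from day 2 to day 3 (SE 0.073, limma adjusted p = 1.6e-06) and was at -3.08 and -3.03 against -2.76 and -2.51 on day 4. Day and slide cannot be told apart in the changes between days of these probes.

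Members were also sorted by how each arm differed between day 3 and day 4. Among the higher members, 90 had a higher mean on day 4 than on day 3 in both arms, 64 a lower mean in both, 58 a higher mean in continued and a lower one in withdrawn cells, and 5 the reverse. Among the lower members, 70 were higher in both arms, 42 lower in both, 42 lower in continued and higher in withdrawn cells, and 3 the reverse. Continued cells moved further than withdrawn cells in 129 of the 217 higher members, and withdrawn cells moved further in 94 of the 157 lower members. Day 3 and day 4 lay on different slides, so these counts carry any slide difference and were not tested. The choice used the day 4 values, which favours a move of each arm towards its day 4 side. No counts over all probes stand beside these, so they are a description only.

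Relative to day 0 the members as a whole moved little through day 3. The higher members had a median of -0.01 in withdrawn and 0.04 in continued cells on day 3 and of -0.07 and 0.08 on day 4. The lower members had 0.01 and -0.03 on day 3 and 0.13 and -0.06 on day 4. In withdrawn cells on day 3 against day 0, 24 higher members were called higher (11.1%, against 20.5% of all probes) and 38 lower (17.5%, against 19.2%). In continued cells on day 3 against the same day 0 arrays, 45 were higher (20.7%, against 23.6%) and 33 lower (15.2%, against 20.6%). Of the lower members, 29 were higher (18.5%, against 20.5%) and 26 lower (16.6%, against 19.2%) in withdrawn cells. In continued cells 19 of them were higher (12.1%, against 23.6%) and 38 lower (24.2%, against 20.6%). From day 2 to day 3 in withdrawn cells, 21 higher members were called higher (9.68%, against 13.7%) and 37 lower (17.1%, against 11.7%). In that comparison 31 lower members were called higher (19.7%, against 13.7%) and 16 lower (10.2%, against 11.7%). These calls are by limma with an adjusted p under 0.05, and the members' shares were at or below those of all probes in most of them. From day 2 to day 3, the shares were above for higher members called lower and for lower members called higher. The 37 higher members called lower include all 14 with CCTAACC. Of the other 203, 23 (11.3%) were called lower, near the 11.7% of all probes. Against day 0, the share was above for lower members called lower in continued cells. Day 0, day 2 and day 3 lay on different slides for the groups compared, so day and slide cannot be told apart in these calls.

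The members came mostly from the dim end of the array. Ranked by sample signal on day 4 among the 27355 probes above background, the median member lay at percentile 15.2 in the higher and 18.8 in the lower set, and 140 (64.5%) and 96 (61.1%) were among the dimmest 25% of these probes. All 374 passed the filter for testing, and 150 higher and 119 lower members were well above background on all 20 arrays. No member was saturated on any array. The median GC content was 45% in both sets and over all probes tested. On the day 4 arrays the 2 arms did not overlap in 205 higher (94.5%) and 146 lower members (93.0%) on the scale of the choice. After background correction they did not overlap in 183 (84.3%) and 137 (87.3%), where 28.4% and 25.5% of all probes were apart on the higher and the lower side. The choice required a day 4 gap on these same arrays, so nothing is read from these shares. The reference channel gave the larger part of the day 4 difference in 25 higher members (11.5%) and 27 lower members (17.2%), and in 129 (6.82%) of the 1891 other probes past the limit.

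In 1 lower member a single spot gave the difference. Z00024128-1, chosen for description after its values were seen, had the largest lower difference on the scale of the choice, -1.93, and its sequence is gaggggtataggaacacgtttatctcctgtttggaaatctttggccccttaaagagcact. On 1 withdrawn day 4 array its sample signal was 8.27 and its reference signal 4.87 as log2 over the array median, while on the other 3 day 4 arrays the sample signal lay between 0.68 and 0.76 and the reference signal between 1.25 and 1.41. The scanner software marked that spot as not uniform. With it left out, the remaining withdrawn array stood at -0.68 and the continued arrays at -0.60 and -0.56, a difference of 0.10 with the opposite sign. Of the other members, 2 higher ones had such a spot on a day 4 array.

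Probes that share at least 25 bases give a second reading of some members. Such a partner existed for 21 members in 17 pairs, and the day 4 difference had the same sign in 15 of the pairs. In 9 pairs the partner was also past the limit on the same side, and 5 pairs were made of 2 members, so that 10 members are not independent of each other. Z00072935-1 and Z00073733-1, offset by a single base and chosen after their values were seen, had day 4 differences of 0.43 and 0.44 and rose in withdrawn cells from day 2 to day 3 by 0.84 each (SE 0.11 and 0.12; limma adjusted p = 2.7e-05 and 6.3e-05). The pair Z00004931-1 and Z00034455-1 was lower on day 4 than on day 3 in both arms: its group means were 0.49 and 0.50 on day 3 and -0.58 and -0.57 on day 4 in withdrawn cells, and 0.27 and 0.30 on day 3 and -1.06 for both on day 4 in continued cells.

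The whole 60 bases of 4 members matched windows around RefSeq gene starts (GRCm38.p6), which place these probes in the genome. Z00032143-1, a lower member, lies at chr1:55088008-55088067 between the starts of Hspd1 and Hspe1, neighbouring genes that encode the mitochondrial chaperonin and its partner, on the strand of Hspd1 and before its start. Its level was 0.94 and 0.81 in withdrawn and continued cells on day 3 and 1.07 and 0.76 on day 4. Z00056816-1, also lower, lies at chr14:31640820-31640879 before the start of Btd, the biotinidase gene, on the opposite strand, and stood at 0.22 in withdrawn and 0.09 in continued cells on day 4. Z00050622-1, a higher member with CCTAACC, lies at chr9:58102179-58102238 across the start of Ccdc33 on its strand, and Z00071816-1 at chr12:22448638-22448697 before the start of Gm46340 on the opposite strand. Z00071816-1 stood at 0.37 in withdrawn and 0.43 in continued cells on day 4. A match in a start window does not say which transcript a probe measures.

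At the day 4 limit the choice is fine-grained. The 2 higher members nearest to it, Z00032604-1 and Z00059827-1, had differences of 0.4025 and 0.4004 on the scale of the choice, and the nearest probes left out, Z00074341-1 and Z00012947-1, had 0.3994 and 0.3987. On the lower side Z00070203-1 and Z00031344-1 were inside at -0.4012 and -0.4006, and Z00033231-1 and Z00037997-1 outside at -0.3997 and -0.3989. Among the members, 106 higher and 49 lower ones were at or past 0.5, and 8 and 1 at or past 1.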

How the data were processed

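The 20 arrays were 2-colour Agilent arrays whose deposited intensities came from Agilent Feature Extraction, version 9.5.1.1 per the file headers. The sample (Cy3) and reference (Cy5) intensities were used. The deposited series value table, in log10 ratios, served as an alternative. Background was corrected with normexp (offset 50; 12 local backgrounds over 10 times the array median were set to that median), followed by loess within arrays with control spots at weight 0. Spots marked as not uniform were set to missing (91 values among the probes tested). limma 3.58.1 in R 4.3.3 fitted the 10 group means over 20 arrays and 29414 probes, with Benjamini-Hochberg adjustment; the script was tested on simulated data. Between 26199 and 30069 probes were well above background per array, and replicate arrays correlated at 0.9845 to 0.9954. The number of arrays, 2 a group, limits the precision. The 4 tested comparisons used day 0, withdrawn day 2 and day 3 arrays, none of which entered the choice of members; both comparisons with day 0 share its arrays. Alternatives changed background, normalization, filter, arrays, block and the limits of the choice. Named probes were, in each direction, the 6 with the largest day 4 difference whose arrays do not overlap, up to 5 called on day 3, and the 2 nearest on each side of the limit; others are said to be chosen after their values. The members, lists and named probes were chosen with earlier results of these data known. 0 probes matched a gene name in the RefSeq table. Sequences come from the array files and start windows from RefSeq (GRCm38.p6).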

Additional observations from a re-analysis of the deposited data

Results flagged for a closer look

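Z00050622-1, the higher member across the start of Ccdc33, lay apart in opposite directions on days 3 and 4. On day 3 the continued arrays were both below the withdrawn arrays (difference -0.17 in log2), and on day 4 both were above them (0.44). The day 3 difference did not pass (SE 0.14, limma adjusted p = 0.82). The difference between the days was not tested.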

How the results depend on the processing

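The choice of members depended on the scale and on the limits. With background-corrected and loess-normalized values it gave 66 higher and 73 lower probes, of which 33 and 30 were members. A day 4 limit of 0.5 gave 106 and 49 probes and a limit of 0.3 gave 542 and 383, while a day 1 and day 2 limit of 0.2 gave 106 and 77 and a limit of 0.4 gave 326 and 248. Leaving out single arrays gave 175 to 345 higher and 112 to 271 lower probes. Each time the cause was not tested.

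The day 3 comparison of continued and withdrawn cells called 153 probes over the array, 45 higher and 108 lower. It called 7 with local backgrounds as given, 36 (7 higher, 29 lower) with processed signals and 86 (36 higher, 50 lower) with median centring. Leaving out 1 array gave 12 to 91: 33 and 59 without the first and second withdrawn array, and 12 and 91 without the first and second continued array. The 2 members called became 0 with local backgrounds as given, processed signals, median centring or the sample channel alone, and 1 with the deposited value table (213 members tested), without the filter on dim probes or with the compared groups alone. Leaving out 1 array gave 0 to 1, and neither of the 2 was called in any of these; without the second withdrawn array the 1 called was a higher member called lower. The medians over members kept their sign under all 14 alternatives, from 0.037 to 0.123 and from -0.077 to -0.038.

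Withdrawn day 3 against day 2 called 7474 probes and 105 members, 3119 and 36 with local backgrounds as given, 4936 and 54 with the deposited value table, and 3686 to 5270 and 67 to 78 with 1 array left out; 3686 and 68 without the first withdrawn day 2 array, 4752 without the first and 3853 and 67 without the second withdrawn day 3 array. Withdrawn day 3 against day 0 called 11677 and 117, 7084 and 69 with local backgrounds as given, and 74 members with the deposited table. Continued day 3 against day 0 called 13014 and 135, and 8493 and 71 with local backgrounds as given. With local backgrounds as given, the drops of Z00077901-1 (-1.39) and Z00070483-1 (-1.30) and the rise of Z00023705-1 (0.39) from day 2 to day 3 had adjusted p = 0.057, 0.061 and 0.084 by limma; their values under the other alternatives that could be fitted stayed past the threshold.

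The labels do not say whether the replicate numbers pair the arrays. On day 3, deviations of same-numbered arrays correlated at -0.00812, with -0.288 to 0.284 between all groups. With 2 arrays a group, these values cannot settle whether arrays were paired. With the replicate number as a block, the day 3 comparison called 161 probes and 2 members, and the others 7419, 11723 and 13038 probes. A slide block could not be fitted for comparisons between days, because each later day has its own slide. With 2 arrays a group and mostly dim members, signal over background limits what the arrays can show.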
